A study of Mus musculus with 20 samples.

Results

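The 40 genes described here encode the contractile apparatus and the mature metabolism of the skeletal muscle fibre, and they were measured by RNA sequencing in cell populations from mouse leg muscle. They were taken by gene symbol from a deposited count table of 24393 genes, and all 40 were found in it. By role they were 12 thick filament genes, 10 thin filament genes, 9 genes of the Z disc, M band and scaffold, 5 genes of calcium handling and 4 genes of energy and oxygen supply. By isoform they were 14 fast genes, 7 slow genes, 4 developmental genes and 15 others, called shared here because they were put in none of these series. The labels give 3 populations (FAP, Misc and SMP) from the quadriceps, tibialis anterior and gastrocnemius of DKO and WT animals, with 4 libraries for each genotype of FAP and of Misc and 2 for each genotype of SMP. FAP is the usual short form of fibro/adipogenic progenitor, a mesenchymal cell lying between fibres, and SMP that of skeletal muscle progenitor, a cell from which fibres are repaired. The design text names FB where the labels write Misc, and nothing ties those names together. The labels do not say what DKO deletes, and it is read here, as an assumption from background knowledge, as desmin (Des) together with nesprin 1 (Syne1). Strain, age, sorting markers and any pooling of animals could not be taken from the sources used here. The replicates are called biological. The p-values measure the spread between these libraries, with 1 estimate of spread for each gene over all groups. For SMP, with 2 libraries for each genotype, they therefore draw largely on the spread within FAP and Misc.

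A sarcomere slides myosin thick filaments along actin thin filaments. The troponin complex and tropomyosin on the thin filament open the actin surface when calcium leaves the sarcoplasmic reticulum. Fast and slow fibres build the same machine from different paralogs, and embryonic and regenerating fibres use a further set (Myh3, Myh8, Actc1 and Tnnt2) that adult limb muscle normally gives up. Resting muscle stem cells keep most of these genes low, and they switch them on after Myod1 and Myog as they differentiate and fuse. FAP and tendon cells are not contractile muscle cells.

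Library totals ran from 5.83 to 17.73 M counts, and the SMP DKO libraries were the shallowest, at 6.12 and 5.83 M. Des passed as lower in DKO in each of the 3 populations, with means of 4.54 against 15.8 CPM in FAP, 1.66 against 3.87 in Misc and 64.8 against 177 in SMP (CPM is counts per 1000000 of the library total after TMM scaling). Syne1 was lower in Misc (66.0 against 106 CPM) and SMP (36.4 against 74.3 CPM) but did not pass in FAP. By marker genes, Pax7 was at 100 to 271 CPM in SMP, and the summed FAP markers were highest in FAP (71107 to 91881 CPM). Misc, whose name claims no cell type, had the highest sum of tendon markers (51632 to 73693 CPM). SMP DKO replicate 2 stood apart from the other SMP libraries. Its 8 immune markers summed to 313 CPM against 27.7 in DKO replicate 1 and 24.5 and 18.3 in WT. Its 7 FAP markers summed to 10333 CPM against 1997 to 2710, and its 8 endothelial markers to 620 against 116 to 308. Counts of SMP calls among the fibre genes are therefore given with and without that library. Without it SMP DKO is 1 library, and the p-values of that fit hold no spread between SMP DKO libraries. In whole-population RNA, a change in the number of cells of a type and a change in RNA per cell cannot be told apart. Several members overlap another annotated gene (Mylpf and Septin1, Myl2 and Ccdc63, Tpm2 and Car9, Atp2a1 and Rabep2, Mybpc2 and Fam71e1, Eno3 and Pfn1, Mb and Apol6, Myh7 and Mhrt), and how the counting treated reads in those stretches is not known here.

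Summed together, fibre genes were read far more often in SMP than in FAP or Misc. The 40 genes summed to 85.1 to 126 CPM in FAP, 138 to 196 in Misc, 589 and 644 in SMP WT and 842 and 1381 in SMP DKO. Of the 38 genes that passed the filter on low counts, 23 were higher and 1 was lower in SMP than in FAP of WT animals (adjusted p below 0.05 by edgeR's quasi-likelihood test), where 62.3% of all 14179 tested genes passed, 31.3% as higher and 31.1% as lower. Against Misc in WT, 18 were higher and none was lower (60.6% of all tested genes passed, 30% as higher and 30.6% as lower). Of the 14 fast genes, 6 were called higher in SMP than in FAP of WT animals and 3 higher than in Misc, with none called lower. In DKO 37 of 38 were higher in SMP than in FAP (58.8% of all tested genes passed, 29.6% as higher and 29.2% as lower). Against Misc in DKO 35 of 38 were higher and none was lower (59.5% passed, 29.7% as higher and 29.8% as lower). Without SMP DKO replicate 2 these DKO counts were 34 against FAP and 30 against Misc. The SMP comparisons of DKO share their SMP libraries, and those of WT likewise. Actc1, Tnni1, Tnnt2, Myh3, Myh8 and Trdn passed the filter on low counts only through SMP libraries. Calls of these 6 genes as higher in SMP are therefore in part fixed by that filter. With scaling by library totals alone, the median log2 difference of all tested genes in these comparisons was 0.28 to 0.32, against −0.03 to 0.02 with TMM.

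Within a population, levels were compared per kilobase of transcript. The highest in SMP WT were Actn3, the fast-fibre Z-disc actinin, at 38.1 CPM per kb, Mybpc1, the slow myosin-binding protein C, at 32.5, and Tpm2, beta-tropomyosin, at 31.6. Pygm, muscle glycogen phosphorylase, followed at 23.5, Atp2a1, the fast calcium pump SERCA1, at 21.4 and Tnnt1, slow troponin T, at 19.0. Acta1, skeletal alpha-actin and the main actin of the adult fibre, stood eighth in that order at 8.68 CPM per kb. The ranges of Mybpc1 and Tpm2 touched (30.6 to 34.3 and 30.8 to 32.5), so that their order was not separated. In SMP DKO the order was led by Acta1, at 50.2 and 142 CPM per kb in the 2 libraries, then Tnnt3 (20.0 and 83.8) and Tpm2 (33.4 and 62.0), with Actn3 at 34.2 at most. The ranges of the first 3 overlapped, while both Acta1 values lay above Actn3. In FAP WT the highest were Pygm (9.89 CPM per kb), Tnnt3, fast troponin T (9.07), and Acta1 (5.95). In Misc the highest were Tpm2 (15.1) and Pygm (14.7) in WT and Acta1 (16.2) and Tpm2 (12.2) in DKO. Of the members tested, Mybpc1 had the largest gap between SMP and FAP in WT: it was at 129 and 115 CPM in SMP WT against 0 to 0.608 in FAP WT and 0.227 to 1.12 in Misc WT, a log2 difference of 8.89 ± 0.44 from FAP (standard error, adjusted p = 6.2e-12).

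**Figure D1:**
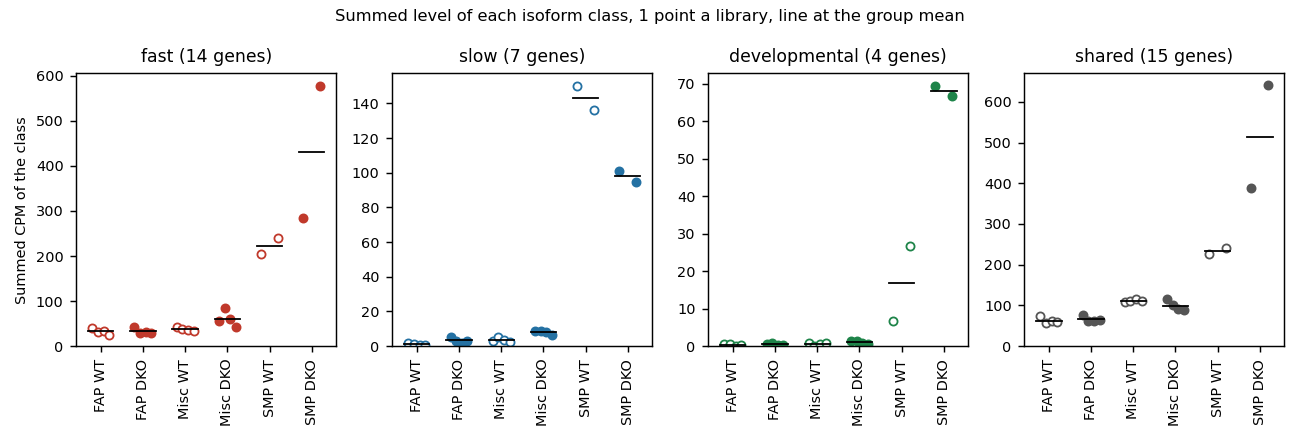
Summed CPM of the fast, slow, developmental and shared genes in each of the 20 libraries, with 1 point a library (open WT, filled DKO) and a line at each group mean. The fast sum reached 284 and 578 CPM in SMP DKO against 205 and 239 in SMP WT. The slow sum, most of it Mybpc1, was 101 and 94.8 CPM in SMP DKO against 150 and 136 in WT, although no slow gene was called lower. The 2 slow genes called higher, Tnni1 and Myl2, passed the filter on low counts only through DKO libraries and cannot be set against that sum.

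In SMP, 24 of the 38 tested genes were higher in DKO than in WT and none was lower, where 23% of all tested genes passed and 11.8% passed as higher. By class these were 10 of 14 fast genes, 2 of 7 slow genes, all 4 developmental genes and 8 of 15 shared genes. The median log2 fold change was 2.34 over the tested members (2.34 also with Myl2, which had no count in WT, at its bound) against 0.01 over all tested genes. Of these members, 6 passed the filter on low counts only through SMP libraries, among them Tnni1, Tnnt2, Myh3 and Myh8 only through the DKO libraries. Myl2 passed it only through DKO libraries of Misc and SMP. Among the 38 tested genes, 27 had both DKO libraries above both WT libraries (27.4% of all tested genes did) and 4 had both below (28.3% did). Without SMP DKO replicate 2, 14 genes stayed called, all higher: 8 fast, 1 developmental, 5 shared and no slow gene. Without SMP WT replicate 1 the developmental calls also came to 1 of 4, and without SMP DKO replicate 1 the slow calls came to 5 of 7. With only the SMP libraries in the model the calls fell to 7 (Actn2, Mylpf, Tnni1, Tnnt2, Ttn, Myoz1 and Myom2). Shares of all tested genes are those of the main fit throughout. Counts from other fits are given without such a share and cannot be set against it.

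**Figure D2:**
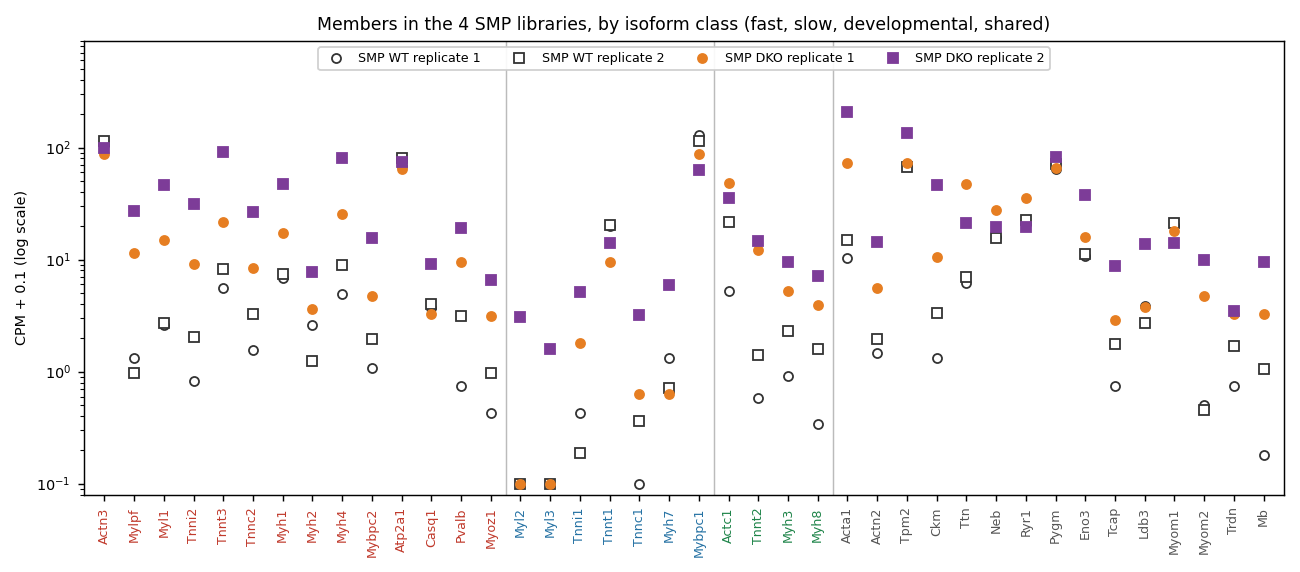
CPM of each of the 40 genes in the 4 SMP libraries, on a log axis after adding 0.1, ordered by isoform class and coloured by it (red fast, blue slow, green developmental, grey shared). Mylpf ran from 0.877 and 1.22 CPM in WT to 11.3 and 27.3 in DKO, whereas Actn3 lay between 87.2 and 115 CPM in all 4 libraries.

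Of the thick filament genes with counts in every SMP library, the light chains Mylpf and Myl1 had the largest fold changes. Mylpf, the fast regulatory light chain (Entrez 17907, chromosome 7, 127208848 to 127214288 in GRCm38), stood at 11.3 and 27.3 CPM in SMP DKO and at 1.22 and 0.877 in WT. Its log2 fold change was 4.18 ± 0.47 (adjusted p = 2e-06) and stayed at 3.41 ± 0.48 (adjusted p = 4.3e-05) without DKO replicate 2. Myl1, the fast essential light chain, was at 14.8 and 45.9 CPM in DKO and at 2.51 and 2.63 in WT (3.55 ± 0.51, adjusted p = 8.1e-05, and 2.51 ± 0.48 without DKO replicate 2). In FAP of either genotype Mylpf lay between 1.18 and 3.26 CPM and Myl1 between 0.952 and 3.17. Myl2, the slow and cardiac regulatory light chain, had no count in 3 of the 4 SMP libraries and 20 counts in DKO replicate 2, so its call rests on that library alone, and the DKO mean was at least 11-fold higher than a floor of 3 counts over the WT group. Myl3, the slow essential light chain, was seen in the same library only (10 counts) and was too low to test.

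The myosin heavy chains were led by fast isoforms in every SMP library. Myh4, the heavy chain of the fastest fibres (Entrez 17884, chromosome 11, 67237812 to 67260447), reached 25.3 and 80.2 CPM in SMP DKO against 4.86 and 8.77 in WT (2.95 ± 0.48, adjusted p = 0.00041). Myh1, the heavy chain of intermediate fast fibres, was at 17.3 and 47.0 CPM in DKO and at 6.73 and 7.28 in WT (2.19 ± 0.42, adjusted p = 0.00084). Myh2, the heavy chain of fast oxidative fibres, held 3.56 and 7.70 CPM in the DKO libraries and 2.51 and 1.14 in the WT libraries, short of passing (1.61 ± 0.66, adjusted p = 0.08). Both libraries of DKO lay above both of WT for all 3 genes, and without DKO replicate 2 Myh4 (1.89 ± 0.42, adjusted p = 0.0037) and Myh1 (1.29 ± 0.43, adjusted p = 0.044) stayed called. Myh3, the embryonic heavy chain, was at 5.14 and 9.33 CPM in DKO and at 0.811 and 2.19 in WT (2.26 ± 0.54, adjusted p = 0.0045). Myh8, the perinatal heavy chain, was at 3.82 and 7.11 CPM in DKO and at 0.243 and 1.49 in WT (2.65 ± 0.78, adjusted p = 0.019). Neither developmental heavy chain passed without DKO replicate 2 (adjusted p = 0.066 for Myh3 and 0.13 for Myh8). Myh7, the slow heavy chain, had groups that overlapped, with 0.527 and 5.78 CPM in the DKO libraries and 1.22 and 0.614 in the WT libraries (adjusted p = 0.18). As a share of these 6 heavy chains per transcript length, fast isoforms took 83.0% and 86.0% in SMP DKO and 86.3% and 80.1% in WT. Developmental isoforms took 16.0% and 10.4% in the DKO libraries and 6.45% and 17.1% in the WT libraries. These shares overlapped between genotypes, whereas the summed counts of the 6 heavy chains were 422 and 1060 in DKO against 202 and 245 in the deeper WT libraries. The heavy chains share long stretches of sequence and all but Myh7 lie in a row on chromosome 11, so that reads could have been split among them.

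The myosin-binding proteins went separate ways. Mybpc2, the fast form, was at 4.61 and 15.4 CPM in SMP DKO and at 0.973 and 1.84 in WT (2.82 ± 0.56, adjusted p = 0.0011, and adjusted p = 0.057 without DKO replicate 2). Mybpc1, the slow form (Entrez 109272, chromosome 10, 88518279 to 88605229), stood at 88.3 and 62.5 CPM in DKO and at 129 and 115 in WT, lower in both DKO libraries without passing (−0.69 ± 0.33, adjusted p = 0.14).

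Among thin filament genes, Acta1 (Entrez 11459, chromosome 8, 123891758 to 123894775) reached 72.6 and 206 CPM in SMP DKO, where WT held 10.3 and 14.8. Its log2 fold change of 3.47 ± 0.39 (adjusted p = 1.6e-05) was 2.52 ± 0.28 (adjusted p = 2e-06) without DKO replicate 2. Actc1, cardiac alpha-actin and the actin of embryonic muscle (Entrez 11464, chromosome 2, 114047282 to 114052875), stood at 48.4 and 35.7 CPM in DKO and at 5.19 and 21.8 in WT. Its call was marginal (1.64 ± 0.56, adjusted p = 0.044) and was lost without DKO replicate 2 (adjusted p = 0.067) and in the DESeq2 Wald test (adjusted p = 0.32), and its WT libraries differed 4.21-fold. The coding sequences of actins are close to each other, so reads could have moved between Acta1, Actc1 and other actins. Tnnt2, cardiac and embryonic troponin T (Entrez 21956, chromosome 1, 135836315 to 135852268), reached 12.1 and 14.7 CPM in DKO, where WT held 0.486 and 1.31. Its change (3.89 ± 0.62, adjusted p = 0.00019) held at 3.74 ± 0.73 (adjusted p = 0.0015) without DKO replicate 2, and its 2 DKO libraries were close to each other.

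All 3 fast troponins and the slow troponin Tnni1 were called higher in SMP DKO, and none of these calls held in every alternative. Tnnt3, fast troponin T, was at 21.6 and 90.4 CPM in SMP DKO and at 5.43 and 8.15 in WT (3.04 ± 0.45, adjusted p = 0.00019). Tnni2, fast troponin I, was at 8.96 and 31.0 CPM in DKO and at 0.730 and 1.93 in WT (3.90 ± 0.56, adjusted p = 5.7e-05). Tnnc2, fast troponin C, was at 8.30 and 26.5 CPM in DKO and at 1.46 and 3.16 in WT (2.91 ± 0.49, adjusted p = 0.00026). All 3 stayed called without DKO replicate 2, with log2 fold changes of 1.66 to 2.75. With only the SMP libraries in the model they did not pass (adjusted p = 0.21 for Tnnt3, 0.084 for Tnni2 and 0.088 for Tnnc2). Tnni1, slow troponin I, was at 1.71 and 5.04 CPM in DKO and at 0.324 and 0.0877 in WT (3.92 ± 0.97, adjusted p = 0.0058), which did not pass without DKO replicate 2 (adjusted p = 0.084) but passed with only the SMP libraries in the model (adjusted p = 0.04). Tnnt1 was at 9.49 and 13.9 CPM in DKO and at 20.0 and 20.2 in WT, lower in both DKO libraries without passing (−0.78 ± 0.32, adjusted p = 0.083). Tnnc1, slow and cardiac troponin C, had 4 and 21 counts in DKO and 0 and 3 in WT, a ratio of 13.8 (95% exact interval 4.21 to 71.4, counting error only), and was too low to test. Tpm2 was at 72.6 and 135 CPM in DKO and at 70.6 and 67.1 in WT (0.59 ± 0.21, adjusted p = 0.051).

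At the Z disc and M band, Ttn, titin, the molecular spring that spans from one to the other, was at 47.2 and 21.2 CPM in SMP DKO and at 6.08 and 6.93 in WT (2.40 ± 0.31, adjusted p = 1.4e-05). Unlike the fast genes it was higher in DKO replicate 1, and without replicate 2 its fold change was 2.85 ± 0.30. Neb, nebulin, which runs along the thin filament, had the same order (27.8 and 19.4 CPM in DKO, 15.8 and 15.6 in WT), short of passing (adjusted p = 0.19). Myom2, an M-band protein more abundant in fast fibres but counted here as shared, was at 4.61 and 9.78 CPM in DKO and at 0.405 and 0.351 in WT, and its log2 fold change of 4.20 ± 0.61 (adjusted p = 4.7e-05) was the largest of the called genes with counts in every SMP library (3.55 ± 0.68 without DKO replicate 2). Its paralog Myom1 was at 17.9 and 13.9 CPM in DKO and at 20.1 and 21.1 in WT, in the other direction without passing. Actn2, the actinin found in all fibres, was at 5.53 and 14.4 CPM in DKO and at 1.38 and 1.84 in WT (2.62 ± 0.65, adjusted p = 0.006). Its fast-fibre paralog Actn3 was at 87.2 and 98.8 CPM in DKO and at 106 and 115 in WT (−0.24 ± 0.22, adjusted p = 0.44). Myoz1, a calcineurin-binding Z-disc protein of fast fibres, was at 3.03 and 6.52 CPM in DKO and at 0.324 and 0.877 in WT (adjusted p = 0.005). Tcap, telethonin, which caps titin at the Z disc, was at 2.77 and 8.59 CPM in DKO and at 0.649 and 1.67 in WT (adjusted p = 0.0094). None of Myoz1, Tcap and Actn2 stayed called without DKO replicate 2. Ldb3, a Z-disc scaffold also called ZASP, held 3.69 and 13.8 CPM in the DKO libraries and 3.73 and 2.63 in the WT libraries, with overlap.

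Calcium handling had the fewest calls of the 5 roles. Pvalb, parvalbumin, the calcium buffer of fast fibres, was at 9.49 and 19.1 CPM in SMP DKO and at 0.649 and 3.07 in WT (2.95 ± 0.58, adjusted p = 0.0011), and it alone of these 5 genes passed, also without DKO replicate 2 (2.35 ± 0.64). Atp2a1 was at 65.0 and 73.6 CPM in DKO and at 68.5 and 80.4 in WT (−0.10 ± 0.24, adjusted p = 0.79), and Ryr1, the calcium release channel, at 35.6 and 19.4 CPM in DKO and at 20.8 and 22.6 in WT (0.34 ± 0.33, adjusted p = 0.48). Casq1, the fast calcium store protein, was at 3.16 and 9.04 CPM in DKO and at 3.57 and 3.94 in WT. Trdn, triadin, which joins that store to the release channel, held 3.16 and 3.41 CPM in the DKO libraries and 0.649 and 1.58 in the WT libraries, short of passing (adjusted p = 0.075).

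Energy and oxygen genes divided likewise. Ckm, the muscle creatine kinase, was at 10.5 and 46.5 CPM in SMP DKO and at 1.22 and 3.24 in WT (3.68 ± 0.57, adjusted p = 0.00017). Mb, myoglobin, was at 3.16 and 9.48 CPM in DKO and at 0.0811 and 0.964 in WT (3.59 ± 0.76, adjusted p = 0.0018). Both passed without DKO replicate 2 (2.24 ± 0.49 for Ckm and 2.59 ± 0.86 for Mb). Eno3, the muscle enolase, was at 15.7 and 37.6 CPM in DKO and at 10.7 and 11.1 in WT (1.28 ± 0.29, adjusted p = 0.0037), and its fold change fell to 0.51 ± 0.29 (adjusted p = 0.24) without DKO replicate 2. Pygm was at 65.1 and 82.8 CPM in DKO and at 64.5 and 70.7 in WT (0.13 ± 0.14, adjusted p = 0.55).

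Most members were higher in SMP DKO replicate 2 than in replicate 1, in every class. The ratio of CPM in DKO replicate 2 to that in replicate 1 was above 1 in all 14 fast genes, from 1.13 to 4.18 with a median of 2.79. It was above 1 in 4 of 5 slow genes (median 2.94, up to 11 for Myh7) and in 11 of 15 shared genes (median 2.12). Over the 12924 tested genes with more than 3 counts in both libraries, the median ratio was 1.00. The 4 developmental genes had ratios of 0.738 (Actc1), 1.21 (Tnnt2), 1.82 (Myh3) and 1.86 (Myh8). Ratios below 1 were also found for Ttn (0.449), Ryr1 (0.545), Neb (0.698), Mybpc1 (0.708) and Myom1 (0.777). The summed developmental class was 69.4 and 66.8 CPM in these libraries and 6.73 and 26.8 in WT, where replicate 2 was the higher. Beside these values stand the immune, endothelial and FAP markers of DKO replicate 2 given above, and their part in its higher levels was not tested.

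**Figure D3:**
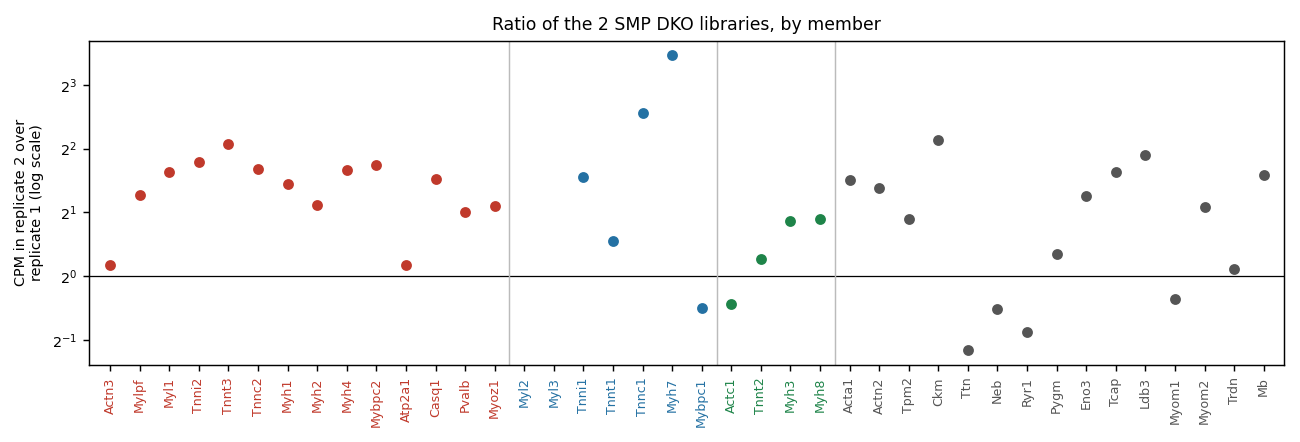
Ratio of CPM in SMP DKO replicate 2 to SMP DKO replicate 1 for each gene with more than 3 counts in both libraries, on a log axis with a line at 1. All 14 fast genes sit above the line (1.13 to 4.18), while Actc1 (0.738) and Ttn (0.449) sit below it.

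Of 14 tested satellite cell and myogenic markers, 1 was called higher in SMP DKO (Myod1) and 3 lower (Pax7, Chodl and Des), with a median log2 fold change of −0.08. Of all tested genes 11.8% were higher and 11.2% lower. Des is itself read here as a deleted gene. The count for these markers was not taken without DKO replicate 2. Myod1, the factor that commits muscle stem cells, was at 338 and 353 CPM in DKO and at 132 and 140 in WT (1.35 ± 0.40, adjusted p = 0.025). Pax7, the factor of resting muscle stem cells, was at 125 and 100 CPM in DKO and at 262 and 271 in WT (−1.24 ± 0.34, adjusted p = 0.017). Myog, which switches on fibre genes, held 86.7 and 51.6 CPM in the DKO libraries and 18.0 and 68.0 in the WT libraries, with overlap. In WT, replicate 2 was the higher for Myog, Actc1, Tnnt2, Myh3 and Myh8. This was not particular to developmental genes, since fast and shared genes such as Pvalb, Myoz1, Tnni2, Ckm and Tcap had the same order. Other fast and shared genes, such as Mylpf, Myh2 and Ldb3, had the opposite order. Whether these factors set the level of the fibre genes was not tested. The 8 immediate early genes, which respond to stress, summed to 7343 to 9107 CPM in SMP DKO and 18391 to 20547 in WT. Their sum was also lower in DKO in FAP (12935 to 14968 against 17004 to 18700 CPM) and in Misc (16194 to 18890 against 21423 to 23980 CPM). The part of these genes was not tested either.

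The sequence before the start of 4 members is shown because these genes behaved differently in SMP: Myh4, Tnnt2 and Actc1 were called higher in DKO, and Atp2a1 did not pass. Each is the 250 bases before a start in RefSeq (GRCm38.p6), 5′ to 3′ on the gene's strand, with E-boxes, MEF2 sites and CArG boxes in capitals. These are the sites known to be read by Myod1 and Myog, by the MEF2 factors and by serum response factor. Myh4 lies at chr11:67237562-67237811 on the plus strand, Tnnt2 at chr1:135836084-135836333 on the plus strand, Actc1 at chr2:114052876-114053125 on the minus strand and Atp2a1 at chr7:126463074-126463323 on the minus strand.
Myh4: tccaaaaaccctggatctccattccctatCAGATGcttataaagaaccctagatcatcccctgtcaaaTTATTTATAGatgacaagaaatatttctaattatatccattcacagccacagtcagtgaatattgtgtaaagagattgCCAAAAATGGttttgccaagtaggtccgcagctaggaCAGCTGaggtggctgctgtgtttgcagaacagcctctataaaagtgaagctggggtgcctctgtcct
Tnnt2: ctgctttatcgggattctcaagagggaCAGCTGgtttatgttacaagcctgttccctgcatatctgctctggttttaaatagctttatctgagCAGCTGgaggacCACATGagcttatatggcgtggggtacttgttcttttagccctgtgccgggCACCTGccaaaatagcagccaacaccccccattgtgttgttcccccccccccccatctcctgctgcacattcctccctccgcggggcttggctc
Actc1: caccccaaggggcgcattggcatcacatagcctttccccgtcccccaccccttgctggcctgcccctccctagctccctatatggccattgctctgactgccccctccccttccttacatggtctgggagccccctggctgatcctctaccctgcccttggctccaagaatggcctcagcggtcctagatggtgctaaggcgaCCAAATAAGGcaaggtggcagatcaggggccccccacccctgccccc
Atp2a1: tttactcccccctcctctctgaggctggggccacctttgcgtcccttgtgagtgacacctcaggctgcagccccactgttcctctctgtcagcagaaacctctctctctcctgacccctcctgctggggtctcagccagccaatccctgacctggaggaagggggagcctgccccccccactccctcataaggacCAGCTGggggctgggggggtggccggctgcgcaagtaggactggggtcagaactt

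In these windows Myh4 held 2 E-boxes, 1 MEF2 site and 1 CArG box, Tnnt2 held 4 E-boxes, Actc1 held 1 CArG box and no E-box, and Atp2a1 held 1 E-box. RefSeq gave such a window for 32 of the 40 members. All motifs searched read the same on both strands, and every CAGCTG also counts as a CANNTG. The E-box CANNTG was found for 27 of these 32 genes (84.4%) and for 69.3% of all 27025 genes with a window (66.2% of the 32851 windows). The E-box CAGCTG was found for 14 genes (43.8%) against 14.7% of all genes (13% of windows), the MEF2 site for 5 (15.6%) against 3.42% (2.92%) and the CArG box for 6 (18.8%) against 1.62% (1.47%). The E-box of Atp2a1, which did not pass, and the E-box of Myh4 that lies nearest its start have the same letters. A match describes letters in the window and nothing of binding.

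In Misc, 11 members were higher and 1 was lower in DKO, where 18.7% of all tested genes passed (9.15% higher and 9.55% lower). The higher genes were 4 fast, 2 slow, 1 developmental and 4 shared. Of the tested members, 11 had every DKO library above every WT library (9.92% of all tested genes did) and 1 had every one below (11.3% did). Acta1 was at 26.5, 26.3, 22.5 and 18.4 CPM in Misc DKO and at 9.78, 9.23, 10.9 and 8.63 in WT (1.28 ± 0.28, adjusted p = 0.0041), with every DKO library above every WT library. Tnnc2 was at 4.85, 6.47, 3.95 and 3.88 CPM in DKO and at 1.18, 1.42, 1.55 and 1.14 in WT (1.85 ± 0.39, adjusted p = 0.0014). Mylpf was at 4.23, 5.15, 5.63 and 2.85 CPM in DKO and at 2.48, 1.5, 1.91 and 1.48 in WT (1.25 ± 0.32, adjusted p = 0.0077). These 3 genes were among 10 called higher in both Misc and SMP, which is 26.3% of the tested members, 90.9% of their 11 higher calls in Misc and 41.7% of their 24 in SMP. Of all tested genes 3.11% were called higher in both, 34% of the higher calls in Misc and 26.4% of those in SMP. Tcap was at 3.48, 2.63, 2.04 and 2.72 CPM in DKO and at 0.530, 1.03, 0.0911 and 0.568 in WT (2.25 ± 0.48, adjusted p = 0.0016). Mb was at 3.24, 1.32, 1.68 and 1.42 CPM in DKO and at 0.236, 0.631, 0.455 and 0.454 in WT (adjusted p = 0.012). Actn2 was at 1.74, 1.08, 1.32 and 1.04 CPM in DKO and at 0.177, 0.789, 0 and 0.341 in WT (adjusted p = 0.03), again without overlap.

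Fast genes in Misc varied with the library. Myh1 was at 4.11, 7.30, 3.00 and 2.59 CPM in Misc DKO and at 1.65, 2.29, 2.28 and 1.59 in WT (1.12 ± 0.36, adjusted p = 0.031). Pvalb was at 2.24, 5.15, 3.72 and 2.33 CPM in DKO and at 1.65, 0.631, 0.637 and 1.02 in WT (1.72 ± 0.46, adjusted p = 0.01). Both were highest in DKO replicate 2, and so was Myh4 (6.22, 13.5, 7.55 and 3.88 CPM in DKO, 4.71, 3.31, 3.37 and 4.09 in WT), which did not pass (adjusted p = 0.072). The same library had the most Myod1 (7.30 CPM against 0.388 to 3.24 in the other DKO libraries and 0.114 to 0.943 in WT), Pax7 (2.63 CPM) and Cdh15 (3.71 CPM). Without it 9 members passed, and Myh1, Pvalb and Tnnt2 did not. Without Misc WT replicate 1 the count was 7. The 15 satellite cell and myogenic markers summed to 1278, 1416, 1433 and 1594 CPM in Misc DKO, with replicate 4 highest and not replicate 2. They summed to 624 to 695 CPM in WT, and most of each sum was Chodl (1006 to 1234 CPM in DKO against 309 to 407 in WT). At most 5 of these 15 markers were at 0 in a Misc library, and the 8 tendon markers ran from 51632 to 73693 CPM in DKO and from 53294 to 56862 in WT. The part of muscle cells in the Misc result was not tested.

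Slow and developmental genes in Misc were called at low counts. Myl2 reached the 0.948 CPM of the filter on low counts only in DKO libraries, 2 of Misc and 1 of SMP. It was thus tested only through the genotype where it was high. Tnnt2 reached that level in SMP libraries and in none of FAP or Misc. Myl2 was at 1.12, 0.359, 1.68 and 0.906 CPM in Misc DKO and at 0.118, 0.237, 0.0911 and 0.114 in WT (2.74 ± 0.84, adjusted p = 0.025). Mybpc1 was at 2.12, 3.71, 2.88 and 0.777 CPM in DKO and at 1.12, 0.315, 0.273 and 0.227 in WT (2.08 ± 0.53, adjusted p = 0.0099), with DKO replicate 4 below WT replicate 1. Tnnt2 was at 0.373, 0.838, 0.120 and 0.129 CPM in DKO and at 0.0789 or 0 in WT (adjusted p = 0.018). That is 12 counts against 1, a ratio of 18.3 (95% exact interval 2.71 to 782, counting error only). The developmental genes Actc1, Myh3 and Myh8 did not pass in Misc, where none exceeded 0.707 CPM in any library.

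Pygm went down in Misc. Its libraries held 20.2, 18.8, 17.4 and 16.2 CPM in Misc DKO against 37.2, 43.9, 47.6 and 40.1 in WT, with no overlap (−1.22 ± 0.11, adjusted p = 3.8e-08). This gene (Entrez 19309, chromosome 19, 6384408 to 6398464) kept its call in Misc under every alternative run. Eno3, whose annotated span overlaps that of Pfn1, ran from 9.58 to 12.2 CPM in Misc DKO against 11.5 to 15.3 in WT, short of passing (adjusted p = 0.24). Tpm2 was at 21.2 to 33.0 CPM in Misc DKO and 29.2 to 37.0 in WT (adjusted p = 0.2).

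**Figure D4:**
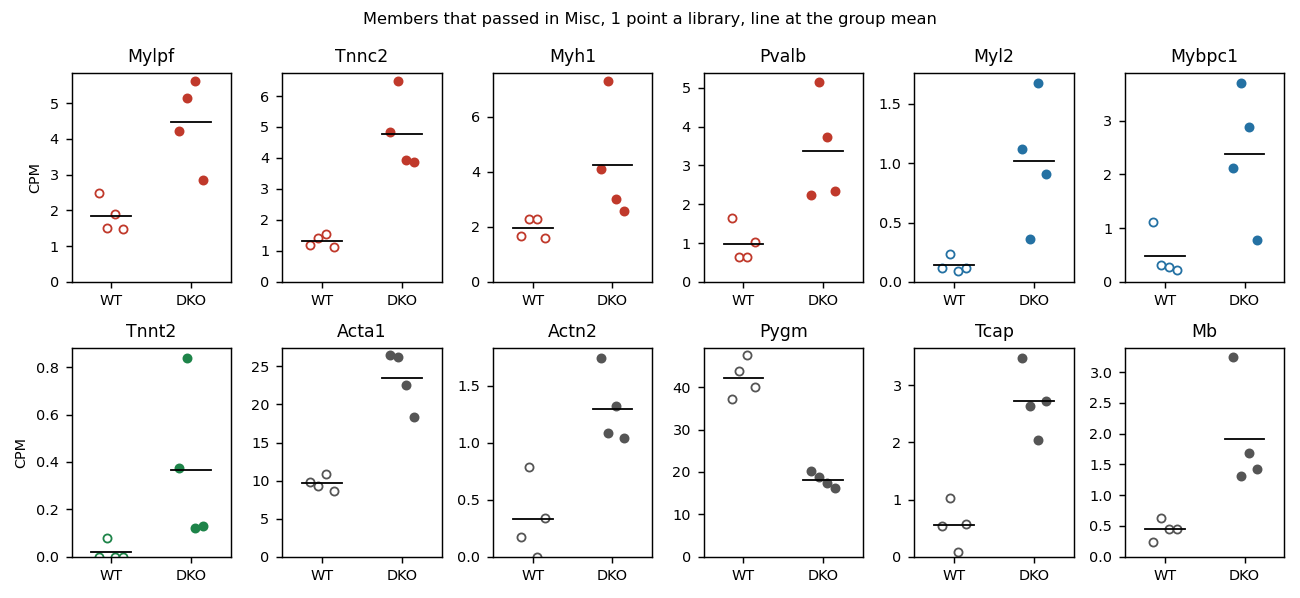
CPM of the 12 genes that passed in Misc, with 1 point a library (open WT, filled DKO), a line at each group mean and axes from 0. Acta1 and Tnnc2 lay higher in all 4 DKO libraries, Pygm lay lower in all 4, and DKO replicate 2 (the second filled point) was highest for Tnnc2, Myh1, Pvalb, Mybpc1 and Tnnt2.

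In FAP, 1 member was higher and 1 was lower in DKO, where 10.7% of all tested genes passed (5.58% higher and 5.14% lower). Every DKO library lay above every WT library for 3 members (8.87% of all tested genes) and below for Myom2 and Pygm (10.3%). Actn2 was at 0.933, 1.10, 0.484 and 0.0980 CPM in FAP DKO and at 0, 0.101, 0 and 0 in WT (4.20 ± 1.07, adjusted p = 0.011), with DKO replicate 4 just below WT replicate 2. This call rests on 23 counts against 1, a ratio of 27.6 (95% exact interval 4.48 to 1140, counting error only). Pygm was at 21.5, 25.9, 20.8 and 22.3 CPM in DKO and at 31.0, 28.2, 26.3 and 28.3 in WT (−0.34 ± 0.11, adjusted p = 0.045). The Pygm call in FAP was lost in the fit with no filter on low counts (adjusted p = 0.064) and when any 1 of 6 libraries was left out (adjusted p from 0.081 to 0.15). Tpm2 was at 15.6, 11.8, 12.1 and 15.0 CPM in DKO and at 9.42, 7.70, 10.2 and 9.90 in WT, without overlap and without passing (0.55 ± 0.18, adjusted p = 0.056). Myh7 was at 1.49, 0.627, 0.0968 and 0.392 CPM in DKO and at 0 to 0.0952 in WT (adjusted p = 0.057), or 25 counts against 2, a ratio of 15 (95% exact interval 3.74 to 130). Myom2 was at 1.68, 1.10, 1.26 and 1.57 CPM in DKO and at 2.51, 4.26, 3.26 and 2.00 in WT, lower in every DKO library without passing (−1.07 ± 0.38, adjusted p = 0.072). The level of Tnnt3 was 10.2 to 12.2 CPM in FAP DKO and 8.38 to 11.6 in WT. The heavy chains Myh1, Myh2 and Myh4 were at 3.45 CPM at most in FAP, and Myh3 and Myh8 at 0.313 at most.

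**Figure D5:**
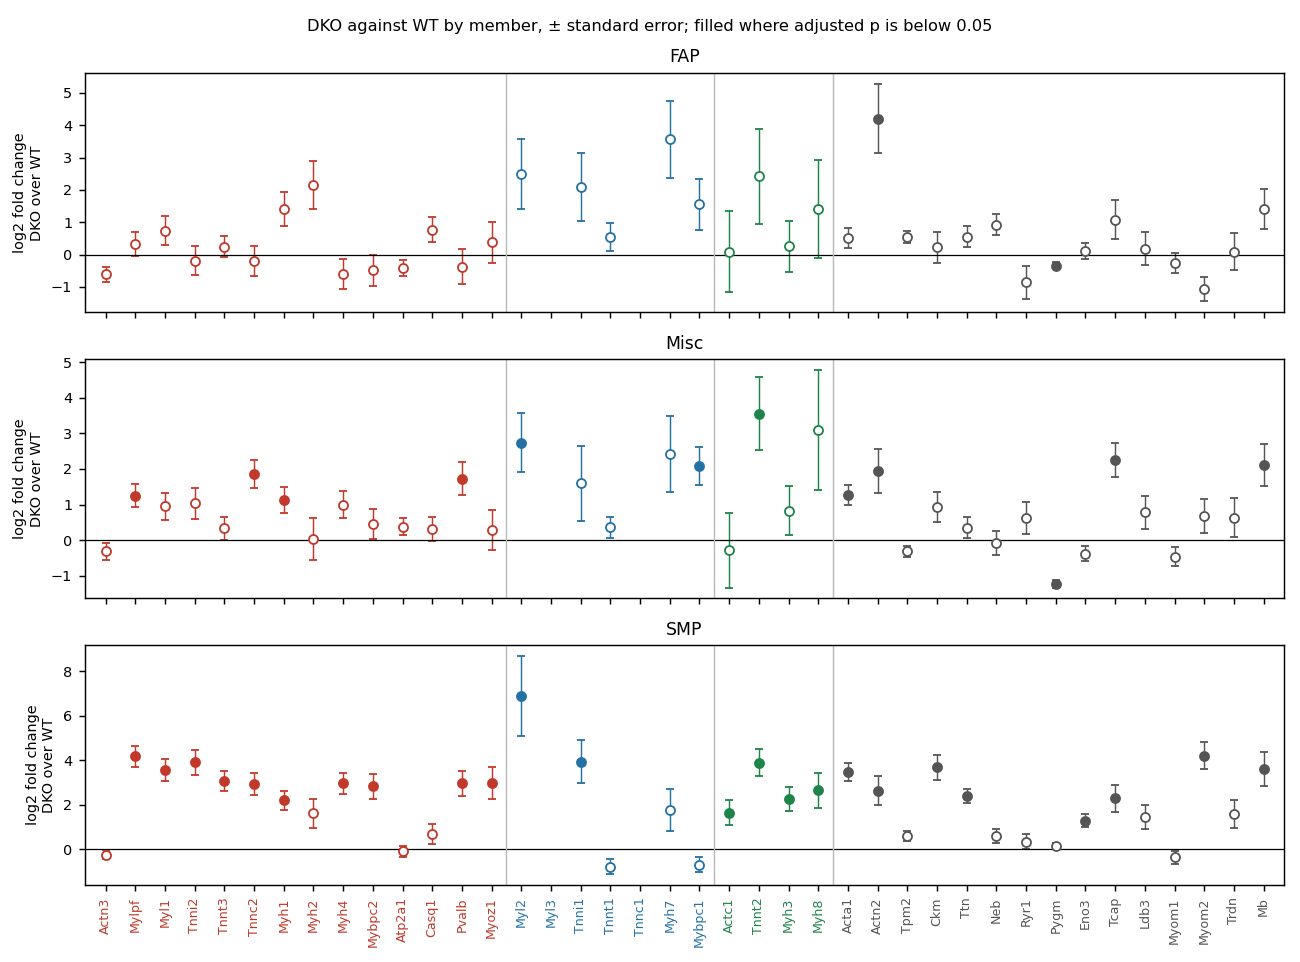
Log2 fold change of DKO over WT ± standard error for each tested gene in FAP, Misc and SMP, filled where the adjusted p was below 0.05 and coloured by isoform class; Myl3 and Tnnc1 were too low to test. In SMP 24 genes are filled and all lie above 0, in Misc 12 are filled with Pygm below 0, and in FAP 2 are filled.

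The size of the DKO effect itself was compared between populations. It was larger in SMP than in FAP for 13 members and smaller for none, or 9 in all without SMP DKO replicate 2 (10.3% of all tested genes passed, 5.42% as higher and 4.92% as lower). These were 8 fast genes (Mylpf, Myl1, Tnni2, Tnnt3, Tnnc2, Myh4, Mybpc2 and Pvalb) and 5 shared genes (Acta1, Ckm, Ttn, Eno3 and Myom2), with Myom2 differing most (5.27 ± 0.72, adjusted p = 4e-05). Against Misc, 12 members had a higher effect in SMP and Mybpc1 a lower one (8.94% of all tested genes passed, 4.34% as higher and 4.61% as lower). Mybpc1 differed by −2.77 ± 0.62 (adjusted p = 0.0093), being higher in Misc DKO and lower in SMP DKO than in WT. Pygm differed by 1.35 ± 0.18 (adjusted p = 3.4e-05). The count against Misc was 7 without SMP DKO replicate 2 and also 7 without SMP WT replicate 1. No developmental gene passed in either comparison, although all 4 were called in SMP. These comparisons share the SMP libraries.

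Between FAP and Misc the effect differed for 1 member, Pygm (0.88 ± 0.15, adjusted p = 0.0015), where 2.79% of all tested genes passed, 1.37% as higher and 1.42% as lower. Same-numbered FAP and Misc libraries deviated together. In a fit of FAP and Misc alone, without pairing, Tnnc2, Tpm2, Myh4 and Pygm differed. With the pairing of same-numbered libraries added to that fit, 6 members differed. The effect was then lower in FAP for Acta1 (−0.74 ± 0.20, adjusted p = 0.019), Tnnc2 (−2.02 ± 0.44, adjusted p = 0.0032), Myh4 (−1.46 ± 0.35, adjusted p = 0.0068) and Pvalb (−2.02 ± 0.56, adjusted p = 0.022). It was higher in FAP for Tpm2 (0.88 ± 0.15, adjusted p = 4e-04) and for Pygm (0.90 ± 0.15, adjusted p = 0.00018). Within WT, 10 members were higher and 1 lower in Misc than in FAP (36.9% of all tested genes passed, 17.6% as higher and 19.3% as lower). Within DKO, 13 were higher and 1 lower (29.7% passed, 13.7% as higher and 16% as lower). The paired fit of FAP and Misc alone brought these counts to 12 and 16. Members higher in Misc in both genotypes were Tnnt1, Tpm2, Myh1 and Eno3. Myom2 was the lower gene in WT (−2.26 ± 0.41, adjusted p = 9.2e-05) and Pygm in DKO (−0.31 ± 0.11, adjusted p = 0.041).

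A separate list of 53 other fibre genes, of which 40 were tested, had 15 higher and 1 lower in SMP DKO, where 11.8% of all tested genes were higher and 11.2% lower. Klhl41 and Klhl40, which stabilise the thin filament, had means of 11.5 ± 4.21 against 3.82 ± 2.53 CPM (SD, n = 2 in each group) and 10.8 ± 2.95 against 3.67 ± 0.143 CPM. Xirp1, an adaptor of muscle attachment and repair sites, was at 25.3 ± 2.78 against 12.6 ± 0.255 CPM. Lmod2, which lengthens thin filaments and is best known from the heart, was lower, at 13.4 ± 0.518 against 39.5 ± 5.98 CPM (−1.56 ± 0.33, adjusted p = 0.0019). Without SMP DKO replicate 2, 10 of this list passed, and with only the SMP libraries in the model 8 did. In Misc 2 of the 40 were higher and 2 lower (9.15% and 9.55% of all tested genes). Asb5, a gene of muscle stem cells, was at 3.48, 19.8, 8.99 and 1.55 CPM in the DKO libraries and at 3.59, 2.21, 0.911 and 0.568 in the WT libraries. Its groups overlapped, and its DKO mean of 8.45 CPM was 4.68 without replicate 2. Tpm1, alpha-tropomyosin, had means of 300 against 509 CPM. In FAP 2 of the 40 were higher and 1 lower, near the 5.58% and 5.14% of all tested genes, with Cmya5 at 25.7 against 14.3 CPM and Atp2a2, the slow and housekeeping calcium pump, at 608 against 446. The markers of heart muscle alone (Myh6, Myl7, Nppa, Nppb and Tnni3) summed to 2.68 CPM at most in any library, beside the cardiac names among the developmental and slow members.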

How the data were processed

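RNA from 20 libraries was sequenced. The design text of the series names OSA as the aligner, to mm10 with RefSeq annotation. The authors deposited 1 table of read counts per gene, whole numbers with no normalization. The counting tool, its version and its use of strand were not given in the sources used here. The submitters' processing notes name DESeq2. Of 24393 gene rows, 24312 matched RefSeq (GRCm38.p6) by Entrez number, and 52 symbols that were blank or had turned into dates were looked up there. Every sample column was mapped to 1 library and 0 were left unused.

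Counts were fitted with edgeR 4.0.16 in R 4.3.3 (TMM scaling, robust quasi-likelihood test, filterByExpr by group with a minimum count of 10 and a minimum total of 15, which came to 0.948 CPM in at least 2 libraries). All 6 groups shared 1 model, 12 comparisons were made, and p-values were adjusted by Benjamini-Hochberg over 14179 tested genes with a threshold of 0.05. The standard error is the fold change divided by the root of the F statistic. CPM is per TMM-scaled total. Levels between genes were divided by the longest-coding GENCODE M21 transcript. The procedure was run on simulated counts first. That simulation gave every gene the same spread, changed only well-counted genes and held no outlying library. It therefore says nothing of low members or of the spread between the SMP DKO libraries. Library totals of 5.83 to 17.73 M limit the precision of low genes, and counting intervals cover counting error only.

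Same-numbered FAP and Misc libraries deviated together in 4 pairs a genotype. Their correlations ran from 0.18 to 0.34 for DKO and from 0.18 to 0.23 for WT, with other pairs at 0.06 or below. Their pairing, a hint from the data and not from the labels, was therefore tried in a second fit, which left out SMP. Alternatives were DESeq2 1.42.0, other scalings, no filter, fits of the compared groups alone, replicate blocks and leaving out each library. Members and gene lists were chosen with earlier results of these data known. Named with values in every library were members called in any DKO comparison, the 6 myosin heavy chains and the highest 3 members of each population, and of the other fibre genes up to 3 each way with a mean of at least 5 CPM.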

Additional observations from a re-analysis of the deposited data

Results flagged for a closer look

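Of 88 groups of 4 libraries examined, 4 held a library set apart from the other 3, where chance gives about 1 in 20. They were Actn3 in FAP DKO (replicate 4 lowest, at 2.06 CPM), Myh4 in FAP DKO (replicate 1 highest, at 2.52 CPM), Mybpc2 in Misc WT (replicate 2 highest, at 1.74 CPM) and Myom1 in Misc WT (replicate 1 highest, at 3.95 CPM).

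The DKO effect on 27 pairs of gene and population contrast differed by edgeR's test of the difference. Between FAP and Misc it differed for Pygm by 0.88 on the log2 scale. From SMP to FAP the differences were 2.96 for Acta1, 3.85 for Mylpf, 2.82 for Myl1, 4.10 for Tnni2, 2.80 for Tnnt3, 3.11 for Tnnc2 and 3.45 for Ckm. They were 3.55 for Myh4, 1.84 for Ttn, 3.31 for both Mybpc2 and Pvalb, 1.17 for Eno3 and 5.27 for Myom2. From SMP to Misc they were 2.19 for Acta1, 2.93 for Mylpf, 2.60 for Myl1, 2.88 for Tnni2, 2.71 for Tnnt3, 0.90 for Tpm2 and 2.74 for Ckm. They were 2.04 for Ttn, −2.77 for Mybpc1, 2.37 for Mybpc2, 1.35 for Pygm, 1.66 for Eno3 and 3.53 for Myom2.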

How the results depend on the processing

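Under the alternatives run, 2647 values kept their direction and side of the threshold and 168 called values fell short of it. Further, 24 counts moved by over 1.5 times and 2 called values changed sign. In FAP the 2 calls became 6 with the DESeq2 Wald test, 1 with no filter on low counts, 5 with the replicate number as a block and 1 to 2 when 1 library was left out. In SMP the 24 calls became 7 with only the compared groups in the model, and 14 to 29 when 1 library was left out. In Misc the range over left-out libraries was 7 to 14. For the difference between FAP and Misc, the 1 call became 3 with DESeq2, 4 with only the compared groups and 2 with the replicate block. It became 6 with the block within genotype and SMP left out, and 1 to 2 when 1 library was left out. The difference between SMP and Misc ranged from 7 to 16. Misc against FAP ranged from 7 (without FAP WT replicate 4) to 11 in WT, and from 9 (without FAP DKO replicate 4) to 18 in DKO. Myh7 changed sign without SMP DKO replicate 2: over left-out libraries it ran from −0.33 to 3.13 in SMP against FAP of DKO and from −0.17 to 3.25 in SMP against Misc of DKO. Myh7 had 4 counts in SMP DKO replicate 1 and 39 in replicate 2, and the cause of that difference was not tested. Calls kept in every alternative that tested them were 4 of 24 in SMP, 6 of 12 in Misc and 1 of 2 in FAP. The call kept in FAP was Actn2. With only the compared groups in the model, neither Actn2 in FAP nor Mybpc1 in Misc was among the calls. DKO and WT libraries share only replicate numbers (correlations of −0.06 to 0.29 in FAP, −0.16 to 0.03 in Misc and −0.05 in SMP). Myl2 in SMP could not be fitted without DKO replicate 2, since every other SMP library was at 0. Scaling by library totals alone turned Ckm, Myl1, Myoz1 and Tnni2 from lower to higher in SMP against Misc of WT, none of them called. For Myh8, also not called, the difference of the DKO effect between SMP and Misc was −0.43 in the main fit and 0.1 with the DESeq2 Wald test.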
